A study of Mus musculus with 2 samples.

Results

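The genes described here are Myc and 9 growth genes that respond to its product, namely Srm, Odc1, Cad, Ncl, Npm1, Fbl, Nop56, Nop58 and Nolc1. They were taken by symbol from the 34259 whole-number gene rows of the deposited table, and all 10 had a row. All 10 also reached the minimum mean of 10 CPM (counts scaled to a common library size) that a gene needed to be measured, as did 8865 genes in all. The study sequenced bulk RNA from 4T1 tumours, which grow in mice from a mammary carcinoma line. The treated group is 1 library, labelled batch 1, from mice injected 3 times with a protein degrader that the study calls autophagy-related without naming its target. The control group is 1 library, labelled batch 2. The sources used here do not give what the control mice received, the strain, age or genotype of any mouse, or how many tumours went into a library. Treatment and batch therefore cannot be told apart, and every value below compares these 2 libraries and has no replicate check. The intervals given are 95% intervals that cover counting error only.

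MYC is a transcription factor that pairs with MAX and binds E-box sequences in the promoters of many growth genes. Its known targets include enzymes of polyamine and pyrimidine synthesis and a large set of nucleolar proteins. In the nucleolus, RNA polymerase I makes ribosomal RNA, small nucleolar ribonucleoproteins modify it, and assembly factors fold it into ribosomal subunits. Tumour cells commonly have enlarged nucleoli, and the proteins NPM1 and nucleolin are abundant structural components of them. In bulk tumour RNA, fewer cells of a type and less RNA per cell cannot be told apart.

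Of the 10 genes, Srm, Nolc1, Nop58, Nop56, Ncl and Fbl were higher in the treated library by more than counting error, whereas the intervals of Myc, Odc1, Npm1 and Cad spanned a fold of 1. At least 2-fold higher were 2 of them, Srm and Nolc1, and none was 2-fold lower. For all measured genes the shares were 4.23% higher and 2.5% lower by the same rule. At 1.5-fold, 5 of the 10 were higher and none lower, against 12.8% and 9.02% of all measured genes. The log2 ratio is the treated over the control CPM with 1 CPM added to both. It was above 0 for 9 of the 10, against 52.5% of all measured genes. Its median over the 10 was 0.55, with a range of -0.02 to 1.66, beside a median of 0.03 over all measured genes. The fold of a single gene was computed from CPM with nothing added. Its counting interval lay above 1 for 6 of the 10 genes, below 1 for none, and spanned 1 for 4. Over all measured genes the shares above and below were 22% and 18.9%. Whether an interval leaves out 1 depends on counts as well as on fold, and these shares were not matched for level.

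**Figure D1:**
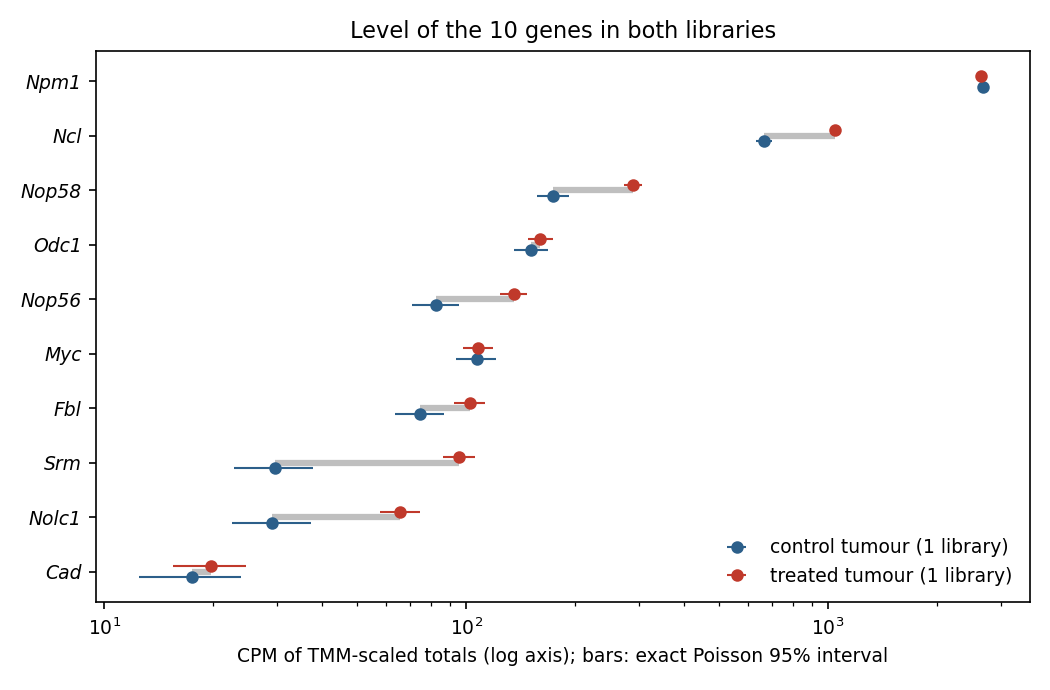
Level of each of the 10 genes in CPM (log axis) in the control library (blue) and the treated library (red), with exact Poisson 95% intervals for counting error, 1 library per group. The treated point lies to the right of the control point for 9 genes, most widely for Srm and Nolc1, and the points of Npm1, Myc and Odc1 nearly coincide.

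Summed over the 10 genes, 18056 of 3824323 counts were in the treated and 8944 of 2252214 in the control library. That is 0.472% (0.465% to 0.479%, Clopper-Pearson) and 0.397% (0.389% to 0.405%) of each total, and a fold of 1.16 (1.13 to 1.19). This sum is dominated by Npm1, which held 56.7% of the treated and 66.9% of the control counts of the set. Without Npm1 the summed fold of the other 9 genes was 1.52 (1.46 to 1.59). Of their 7817 treated and 2963 control counts, Ncl held 4045 and 1480, so this fold weighs Ncl most.

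Promoters of the core box C/D pair Nop56 and Nop58, which differed alike between the libraries, are shown beside that of Odc1, which hardly differed. The sequences are from RefSeq (GRCm38.p6) and run from 250 bases before to 50 bases after the annotated start. They are in lower case, with each GC box (GGGCGG, or CCGCCC where it lies on the other strand) in capitals. Nop56 is at chr2:130274162-130274461, plus strand, Nop58 at chr1:59684756-59685055, plus strand, and Odc1 at chr12:17544623-17544922, plus strand.
Nop56: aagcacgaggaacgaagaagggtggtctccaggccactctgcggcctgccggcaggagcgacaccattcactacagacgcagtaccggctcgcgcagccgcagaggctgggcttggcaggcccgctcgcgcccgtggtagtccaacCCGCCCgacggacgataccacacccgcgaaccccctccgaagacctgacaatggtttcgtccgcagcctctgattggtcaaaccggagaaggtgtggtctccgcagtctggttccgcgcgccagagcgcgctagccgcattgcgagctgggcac
Nop58: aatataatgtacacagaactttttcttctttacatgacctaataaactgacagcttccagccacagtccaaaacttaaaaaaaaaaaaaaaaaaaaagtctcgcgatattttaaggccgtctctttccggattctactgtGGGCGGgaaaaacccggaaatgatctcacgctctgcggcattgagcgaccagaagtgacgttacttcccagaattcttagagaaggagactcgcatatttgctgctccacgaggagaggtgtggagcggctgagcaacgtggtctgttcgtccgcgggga
Odc1: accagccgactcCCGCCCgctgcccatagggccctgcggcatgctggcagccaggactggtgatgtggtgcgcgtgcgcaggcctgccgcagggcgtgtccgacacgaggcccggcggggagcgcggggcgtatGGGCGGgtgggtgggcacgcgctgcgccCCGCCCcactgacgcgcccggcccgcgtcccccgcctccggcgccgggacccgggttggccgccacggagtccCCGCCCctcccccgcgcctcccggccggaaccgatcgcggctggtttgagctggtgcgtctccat

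The promoter table held 6 of the 10 genes, these and Ncl, Nolc1 and Cad. Both strands of each window were searched, beside the first listed start of 27025 genes. The GC box was present in 6 of 6, against 35.9% of all windows, and the GC content of the 6 had a median of 62.8% against 52.7%. The shares of all windows given here were not matched for GC content. Nop58 holds a single GC box, starting at position -110, in a window of 45.3% GC, and Nop56 a single one at -104. Odc1 holds 4, in a window of 78% GC. Ncl holds 3 at 69.3% GC, Nolc1 2 at 57% and Cad 2 at 59.7%. Whether the number of boxes goes with the fold was not tested. The E-box CACGTG was found in 0 of 6, against 7.24% of all windows. The related CACGCG was in Odc1 and Nolc1, against 9.36%. The general form CANNTG, which takes in CACGTG, was in Nolc1 and Cad, against 72.1%. CCAAT was in Nop56 alone of the 6, against 37.9%, and TATAAA in 0 of 6, against 14.2%. These matches describe letters in a window of 300 bases and not factor binding. Sequence outside the windows was not searched, so 0 of 6 does not show that these genes lack a CACGTG site.

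Myc (ENSMUSG00000022346, mm10 chromosome 15, 61985391 to 61990374, plus strand) had 417 treated and 238 control counts. Its levels were 108 and 107 CPM, a fold of 1.01 (0.859 to 1.19). The Poisson intervals of both libraries overlapped almost fully. Mycn and Mycl, the other family members, had 3 and 5 treated counts and 3 and 1 control counts, too few to compare, and both were named with their values known.

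The enzymes of small-molecule synthesis differed from each other. Srm (ENSMUSG00000006442, chromosome 4, 148591503 to 148594993, plus strand) encodes spermidine synthase, which makes spermidine from putrescine. It had 370 treated and 66 control counts, or 95.7 and 29.6 CPM, a fold of 3.23 (2.48 to 4.27). This was the largest fold of the 10, and 1.71% of all measured genes had a log2 ratio at least as high. Odc1 (ENSMUSG00000011179, chromosome 12, 17544794 to 17551505, plus strand) encodes ornithine decarboxylase, the rate-limiting enzyme just upstream. It had 620 and 337 counts, or 160 and 151 CPM, a fold of 1.06 (0.928 to 1.21). The count ratio of Srm to Odc1 inside a library needs no scaling. It was 0.597 treated and 0.196 control, a change of 3.05-fold (2.26 to 4.15). Cad (ENSMUSG00000013629, chromosome 5, 31054780 to 31078479, plus strand) encodes the enzyme of the first 3 steps of pyrimidine synthesis and is a classical MYC target. With 76 and 39 counts, or 19.7 and 17.5 CPM, its fold was 1.12 (0.754 to 1.70). That fold could not be told from no difference at this depth.

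Nop56, Nop58 and Fbl are core proteins of the box C/D particle, which guides 2'-O-methylation of ribosomal RNA, and all 3 were higher in the treated library by more than counting error. Nop58 (ENSMUSG00000026020, chromosome 1, 59684971 to 59719044, plus strand) had 1117 treated and 388 control counts, or 289 and 174 CPM, a fold of 1.66 (1.48 to 1.87). Nop56 (ENSMUSG00000027405, chromosome 2, 130274430 to 130279313, plus strand), its paralog and partner in the particle, had 523 and 184 counts, or 135 and 82.6 CPM, a fold of 1.64 (1.38 to 1.95). The Poisson intervals of the libraries did not overlap for either gene. The count ratio of Nop56 to Nop58 was 0.468 treated and 0.474 control, a change of 0.987-fold (0.802 to 1.22). Fbl (ENSMUSG00000046865, chromosome 7, 28169710 to 28179269, plus strand) encodes fibrillarin, the methyltransferase of the particle. It had 395 and 166 counts, or 102 and 74.5 CPM, a fold of 1.37 (1.14 to 1.65). Its count ratio to Nop58 was 0.354 and 0.428, a change of 0.827-fold (0.663 to 1.03), so a difference between these 2 genes was not detectable at this depth.

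Nolc1 (ENSMUSG00000015176, chromosome 19, 46075863 to 46085530, plus strand) encodes NOPP140, a nucleolar and Cajal body phosphoprotein that chaperones both classes of small nucleolar particle. It had 254 treated and 65 control counts, or 65.7 and 29.2 CPM, a fold of 2.25 (1.71 to 3.01). Of all measured genes, 3.21% had a log2 ratio at least as high. Its count ratio to Nop58 was 0.227 treated and 0.168 control, a change of 1.36-fold (1.00 to 1.85).

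The abundant structural proteins of the nucleolus differed from each other. Ncl (ENSMUSG00000026234, chromosome 1, 86344719 to 86359400, minus strand) encodes nucleolin, an RNA-binding protein of early ribosomal RNA processing. It had 4045 treated and 1480 control counts, or 1047 and 664 CPM, a fold of 1.58 (1.48 to 1.67). Npm1 (ENSMUSG00000057113, chromosome 11, 33152287 to 33163206, minus strand) encodes nucleophosmin, a histone and ribosome chaperone of the granular component. It had 10239 and 5981 counts, or 2649 and 2684 CPM, a fold of 0.987 (0.956 to 1.02). With the highest counts of the set, the interval of Npm1 was also the narrowest. The count ratio of Ncl to Npm1 was 0.395 treated and 0.247 control, a change of 1.60-fold (1.49 to 1.71). The ratio of Nop58 to Npm1 changed by 1.68-fold (1.49 to 1.90), whereas that of Npm1 to Myc changed by 0.977-fold (0.827 to 1.15). Ncl against Myc changed by 1.56-fold (1.31 to 1.85). In all, 13 such pairs were computed.

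**Figure D2:**
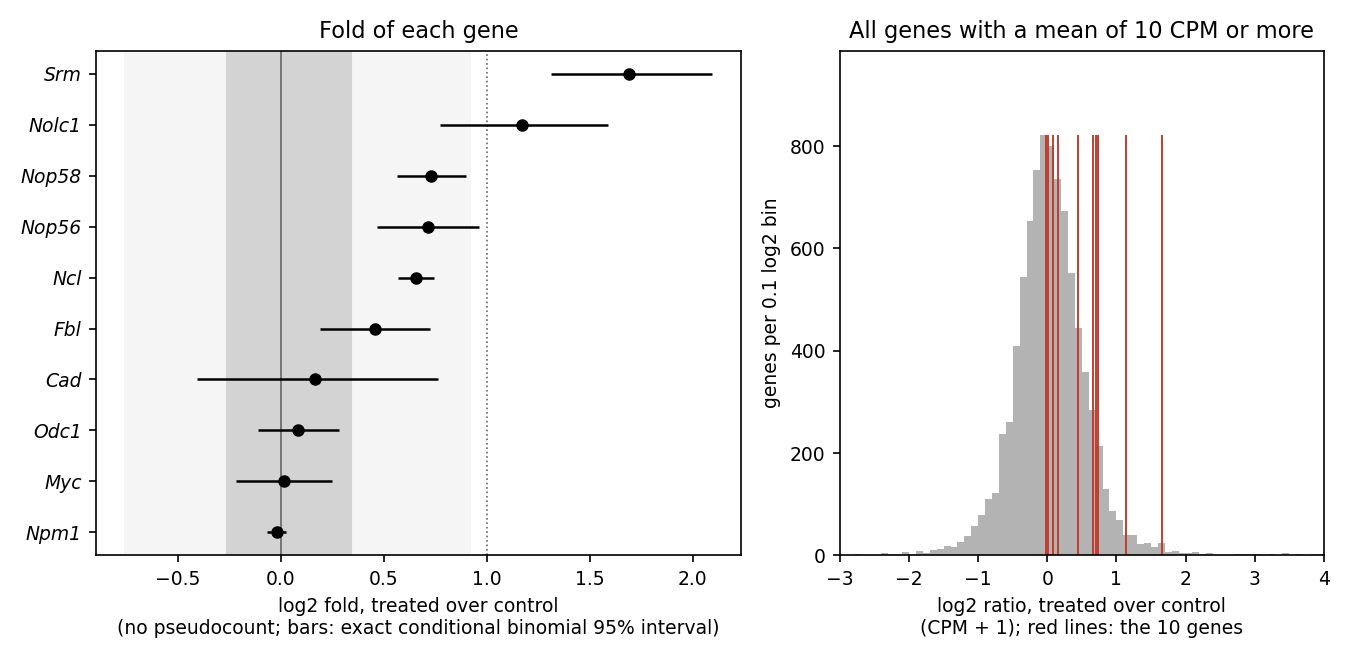
Left, log2 fold of each gene (treated over control, nothing added) with its exact conditional binomial 95% interval; the grey bands span the middle 50% and 90% of log2 ratios of all measured genes, and the dotted line marks 2-fold. Right, histogram of the log2 ratios of all 8865 measured genes with the 10 genes as red lines. Srm and Nolc1 lie to the right of the wider band, which ends at 0.92, and Npm1, Myc, Odc1 and Cad lie inside the narrower band, which ends at 0.34.

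Levels of different genes were compared per kilobase of coding sequence, using the longest coding transcript of each gene in GENCODE M21. On this scale Npm1 was the highest in both libraries, at 3024 CPM per coding kb treated and 3064 control. Ncl followed at 493 and 313. Nop58, at 180 and 108, and Odc1, at 116 and 109, came next. In the control library the Poisson intervals of these overlapped, so their order there is not set. In the treated library Srm came next at 106, with Fbl at 104, and the intervals of Odc1, Srm and Fbl overlapped. Those of Myc at 79.2 and Nop56 at 77.8 also overlapped there. In the control library Srm stood at 32.7, below Nop56 at 47.5, Fbl at 75.9 and Myc at 78.4, and the intervals of Fbl and Myc, and of Srm and Nop56, overlapped. Nolc1, at 31.2 and 13.8, and Cad, at 2.95 and 2.62, were the lowest in both. The length used leaves out the untranslated parts of a transcript, though counts may include reads from them. The sources used here also do not say how evenly the library kit covers a transcript. These levels are therefore approximate, whereas the folds do not use length.

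The genomic context of the 10 genes also differed. In GENCODE M21, small nucleolar RNA genes lie inside Nop56, Nop58, Ncl and Odc1 on the same strand, 13 in all, with 5 in Nop56, 4 in Nop58, 3 in Ncl and 1 in Odc1. Among them are Snord57 and Snord110 in Nop56, Snord11 and Snord70 in Nop58, and Snord82 and Snora75 in Ncl. None of the 13 was matched by gene identifier to a row used here, so their own levels were not analysed. The host genes comprised both genes that were higher in the treated library, Nop56, Nop58 and Ncl, and Odc1, which differed little.

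Some transcripts share sequence with other annotated genes, so part of their reads could be divided. Of the 50-base words in the transcripts of Fbl, 67.7% also occur in transcripts of other GENCODE M21 genes. The share was 42.2% for Odc1, 31.9% for Npm1 and 30.3% for Nop56, and at most 2.40% for the other 6 genes. The gene sharing the most words with Fbl was Gm5812, with Odc1 Gm7993 and with Npm1 Gm9118. By gene identifier, 0 of the genes sharing words with Odc1, Npm1 or Nop56 had a row. For Fbl 1 had a row, Tulp4, which shares 18 words. The sources used here do not say how reads with several matches were counted, so the levels of these 4 genes are uncertain. Nop56 also overlaps the end of Idh3b on the opposite strand by a few bases, and whether counting used strand is likewise unknown. Idh3b had 336 treated and 163 control counts.

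The wider pathway was described with 15 other lists, of which all had at least 5 measured genes. The list of genes activated by MYC, which leaves out the 10 genes, had 47 measured of 53 members. Of these, 39 had a log2 ratio above 0, 12 were at least 1.5-fold higher, of which 3 passed 2-fold, and 1 was lower past 2-fold. Over all measured genes the shares were 52.5%, 12.8%, 4.23% and 2.5%, and at 2-fold the list lies near them. The median was 0.33, and 0.20 among genes averaging 50 CPM or more. Its most abundant members were the mitochondrial chaperonins Hspd1, with 513 and 318 CPM and a fold of 1.61 (1.48 to 1.76), and Hspe1, with a fold of 1.13 (1.02 to 1.25). Grwd1, a histone-binding protein of ribosome assembly, was 2.52-fold higher (1.52 to 4.39). Hk2, the hexokinase of glycolytic tumours, had 34.4 and 78.1 CPM, a fold of 0.441 (0.349 to 0.556). The list of genes repressed by MYC had 14 measured of 20, with 7 above 0 and 7 below, a median of 0.12, and 2 past 2-fold upward and 1 downward. Klf4, an epithelial transcription factor, had a fold of 3.82 (2.54 to 5.96) and Thbs1, a matrix glycoprotein, 0.424 (0.381 to 0.471). Abundant Itgb1, an integrin chain, had 0.772 (0.724 to 0.823) and Clu, a secreted chaperone, 1.60 (1.47 to 1.73). The median of this list was -0.20 when only genes averaging 50 CPM or more were kept.

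Partners and regulators of MYC were listed separately. In the network list, 13 of 19 measured genes were above 0, against 52.5% of all measured genes, with a median of 0.13. Max, the obligate partner of MYC, had 152 and 80 counts and a fold of 1.10 (0.830 to 1.45), and is named with its value known. Mxd1, a MAX-binding antagonist of MYC that is high in differentiating cells, had 69 and 14 counts and a fold of 2.84 (1.58 to 5.47). It was the only gene of this list at least 2-fold higher, and none was 2-fold lower, against 4.23% and 2.5% of all measured genes. Ruvbl2, an ATPase shared by chromatin complexes and box C/D assembly, had a fold of 1.87 (1.41 to 2.50), and its partner Ruvbl1 1.21 (0.993 to 1.48). Mycbp2, a ubiquitin ligase named for MYC binding, had 0.904 (0.749 to 1.09). Among regulators of MYC protein turnover, 10 of 17 measured were above 0, with a median of 0.09 and none past 2-fold. Aurka, a mitotic kinase, had a fold of 2.10 (1.27 to 3.64), which stayed under the 2-fold rule once 1 CPM was added. Pim3, a survival kinase, had 0.593 (0.488 to 0.720) and the phosphatase subunit Ppp2ca 0.864 (0.761 to 0.980).

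**Figure D3:**
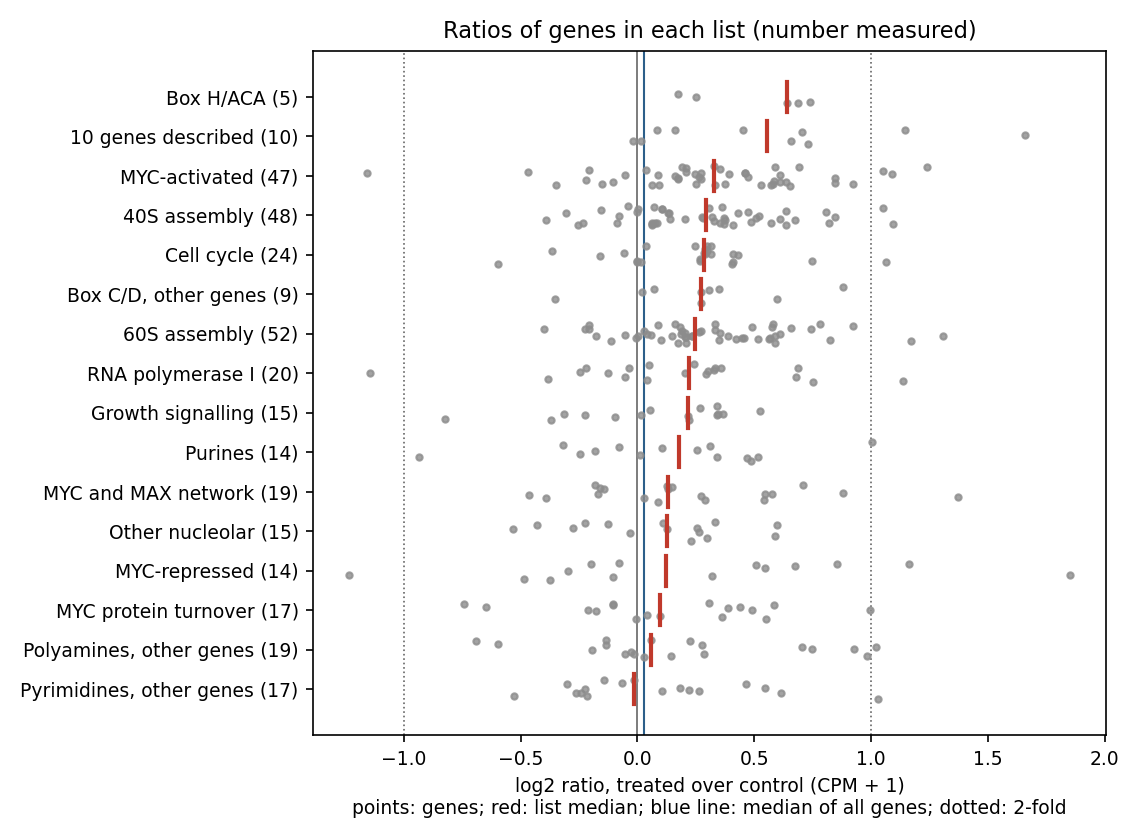
Log2 ratio (treated over control, CPM + 1) of every measured gene in each list (grey points), with the list's median in red, the median of all measured genes as a blue line and 2-fold as dotted lines; every other list is shown without the 10 genes. The medians run from -0.02 for the other pyrimidine genes to 0.64 for the box H/ACA list, with the 10 genes at 0.55. Which of these last medians is higher depends on whether the box H/ACA gene Shq1, here below the minimum mean CPM, is counted.

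The particles that modify ribosomal RNA were described gene by gene. In the box C/D list, 12 of 13 genes with a row were above 0, against 52.5% of all measured genes. Of the 9 that are not among the 10 genes 8 were above 0, with a median of 0.27. Snu13, the RNA-binding protein that starts assembly of the particle and is also part of the spliceosome, had 196 and 187 CPM, a fold of 1.05 (0.930 to 1.19). The fourth core protein thus differed less than Nop56 and Nop58 as measured, though this difference was not computed with its own interval. The box H/ACA particle guides pseudouridine formation, and its 5 measured genes were all above 0, with a median of 0.64. Shq1, the other listed gene, averaged 8.72 CPM, below the minimum. It had 31 and 21 counts and a log2 ratio of -0.21, and is named with its value known. With no minimum, which takes in Shq1, the median of the list was 0.45, below the 0.55 of the 10 genes. It was 0.42, below 0.53, when totals left out mitochondrial, haemoglobin and ribosomal protein genes, which lifts Shq1 past the minimum. Dkc1, the pseudouridine synthase dyskerin, had 402 and 143 counts and a fold of 1.62 (1.34 to 1.98). Nhp2 had 1057 and 390 counts and a fold of 1.56 (1.39 to 1.76), and Gar1 156 and 53 counts and a fold of 1.70 (1.24 to 2.36). Nop10, the smallest core protein, had a fold of 1.13 (0.937 to 1.37), and is named with its value known. In both particles, then, 3 core proteins had intervals above 1 and 1 had an interval that spanned 1.

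**Figure D4:**
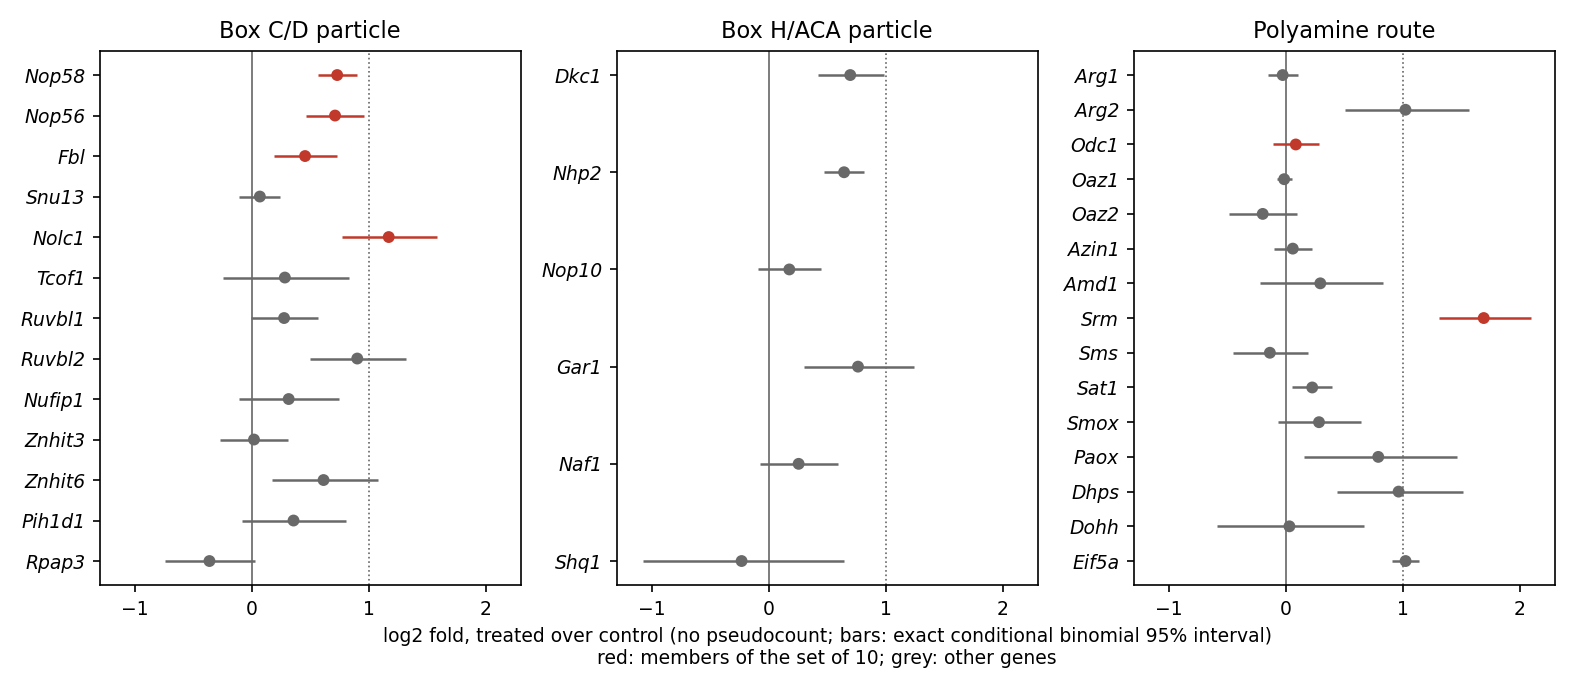
Log2 fold (treated over control, nothing added) with exact conditional binomial 95% intervals for genes of the box C/D particle, the box H/ACA particle and the polyamine route; red marks members of the 10 and grey other genes, and the dotted line marks 2-fold. Nop58, Nop56, Fbl, Dkc1, Nhp2 and Gar1 lie to the right of 0, while Snu13 and Nop10 span it, and in the polyamine panel Srm lies farthest to the right.

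Ribosome assembly factors were mostly above 0 by small amounts, and at 2-fold their counts were close to the 4.23% of all measured genes. In the 40S list, 39 of 48 measured were above 0, against 52.5% of all genes, with 2 past 2-fold upward and none downward. The median was 0.29, and 0.13 among genes averaging 50 CPM or more. Bud23, a methyltransferase of 18S ribosomal RNA, had a fold of 2.21 (1.51 to 3.30) and Imp4, a processome protein, 2.12 (1.51 to 3.03). Abundant Wdr36 had 0.760 (0.668 to 0.866), whereas Wdr43 had 1.30 (1.11 to 1.52). In the 60S list, 44 of 52 measured were above 0, with a median of 0.25, and again 2 passed 2-fold upward and none downward. Ftsj3, a ribosomal RNA methyltransferase, had a fold of 2.55 (1.82 to 3.64) and Rrp1b 2.35 (1.54 to 3.69). Abundant Nsa2 had 0.867 (0.789 to 0.953) and Pa2g4 1.13 (1.01 to 1.26). The MYC-activated list shares 20 genes with these 2 lists, 37.7% of it and 18.2% of them, so they are not independent. RNA polymerase I and its factors had 13 of 20 measured above 0, with a median of 0.22, which was 0.05 among genes averaging 50 CPM or more. Taf1a and Taf1b, both subunits of its promoter selectivity factor, lay on opposite sides, with folds of 2.39 (1.32 to 4.64) and 0.430 (0.280 to 0.656). Taf1d and Polr2f, the most abundant of the list, had 0.975 (0.888 to 1.07) and 1.04 (0.940 to 1.14). Of the other nucleolar proteins, 9 of 15 were above 0, with a median of 0.13. Lyar, a nucleolar growth regulator, had 1.52 (1.29 to 1.79) and Nop53 1.09 (0.979 to 1.22).

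Around Srm and Odc1, the other polyamine genes had 11 of 19 measured above 0, against 52.5% of all measured genes, and a median of 0.06. By the rule on CPM + 1, 1 was at least 2-fold higher, against 4.23% of all measured genes. That gene was Eif5a, the translation factor that carries the spermidine-derived residue hypusine. It had 722 and 355 CPM, a fold of 2.03 (1.88 to 2.20). Dhps, the enzyme that uses spermidine to start that modification, had 132 and 39 counts and a fold of 1.95 (1.36 to 2.87). Dohh, which completes it, had 1.02 (0.664 to 1.59). Sms, which makes spermine from spermidine, had 213 and 135 counts and a fold of 0.910 (0.730 to 1.14). Arg2, an arginase that makes the ornithine used by Odc1, had 141 and 40 counts and a fold of 2.03 (1.42 to 2.96), just under the rule on CPM + 1. Arg1, the other arginase of the list and the more abundant, had 1343 and 789 counts and a fold of 0.981 (0.898 to 1.07). Dhps, Dohh, Sms, Arg2 and Arg1 were named with their values known. Oaz1, the antizyme that sends ornithine decarboxylase to the proteasome, had 1322 and 1335 CPM, a fold of 0.990 (0.946 to 1.04). Around Cad, 8 of 17 other pyrimidine genes were above 0, with a median of -0.02. Uck2, a uridine-cytidine kinase of the salvage route, had a fold of 2.06 (1.68 to 2.56) and Tk1, thymidine kinase, 1.54 (1.28 to 1.85). Abundant Nme1 and Dut had 0.955 (0.872 to 1.05) and 0.834 (0.754 to 0.922). Umps, which completes the route begun by Cad, had 187 and 109 counts and a fold of 0.989 (0.777 to 1.26), and is named with its value known.

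Markers of other cell types differed in level between the libraries. All 10 keratinocyte markers were higher in the treated library, summing to 3422 CPM against 239. Of these 8 were measured, and all 8 were at least 2-fold higher, against 4.23% of all measured genes. Ivl and Dsg3, below the minimum mean, were at 0 in the control library. The 10 neutrophil markers summed to 2422 and 845 CPM, with S100a8 and S100a9 the most abundant. Of them 5 were measured, and all 5 were at least 2-fold higher, against 4.23% of all measured genes. The rest were below the minimum mean, with intervals that spanned a fold of 1. Their log2 ratios lay on both sides, from Ltf at -1.03 on 4 and 7 counts to Ly6g at 0.49 on 4 and 1. The 6 epithelial markers of 4T1 cells summed to 4789 and 4342 CPM, a fold of 1.10 (1.08 to 1.13). They differed among themselves, from Krt7 at a log2 ratio of -0.43 to Krt19 at 0.65, with Krt8 at 0.11 and Krt18 at 0.17. The 9 macrophage markers summed to 2156 and 2002 CPM, with members on both sides, from Lyz2 at 0.632-fold to Mrc1 at 2.99-fold. The 7 fibroblast markers summed to 1611 and 1893 CPM, from Col1a2 at 0.703-fold to Pdgfra at 2.67-fold on 51 and 11 counts, with Dcn at 2.42-fold. The 7 endothelial markers summed to 102 and 221 CPM. The 7 lymphocyte markers summed to 33.1 and 49.4 CPM, with Cd79a and Ms4a1 at 0 in the treated and Cd3e at 0 in the control library. The part of these differences in the levels of the 10 genes was not tested. When the libraries were instead scaled on Krt8 and Krt18 together, the log2 ratios of Srm and Nolc1 were 1.52 and 1.01, that of Ncl was 0.52, and those of Myc, Odc1 and Npm1 were -0.12, -0.05 and -0.16.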

How the data were processed

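Bulk RNA of 4T1 tumours was sequenced in 2 libraries, 1 treated and 1 control. The authors' deposited table holds whole numbers, read here as raw counts, for each gene. The build is mm10 per the submitters' processing notes. The sources used here do not give the aligner, counter, strand setting or treatment of molecular identifiers. Of 34290 rows, 31 at the top, among them Mtor and Tsc1, are on another scale and were left out. Columns were tied to samples through the sheet deposited for each sample, and 7 further columns of values were not used. Counts were scaled by TMM (trims of 30% and 5%, factors 1.01 and 0.989) with Python 3.11.15, pandas 2.3.3, numpy 2.4.6 and scipy 1.17.1. In CPM, 1 count equals 0.259 (treated) and 0.449 (control). With 1 library per group no test was run. Genes were compared by a 2-fold rule on log2(CPM + 1) at a mean of at least 10 CPM. Fold intervals are exact conditional binomial, and intervals for ratios inside a library are exact conditional odds ratio intervals. All 10 genes were described, and from each other list the 2 genes highest in mean CPM and the 2 farthest from 0 in log2 ratio. Exceptions are marked. Some genes that the rule names are not reported here. The members, lists and rules were chosen with earlier results of these data known. List symbols were matched through gene identifiers where renamed. The scaling and intervals were tested on simulated Poisson counts, which hold no variation between animals. The intervals there used plain library totals. Alternatives were 4 other scalings, pseudocounts of 0.5 and 5 CPM, minimum means of 0, 1 and 50 CPM, a 1.5-fold rule, the mean of a list and the second deposited sheet.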

Additional observations from a re-analysis of the deposited data

How the results depend on the processing

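No paired analysis was possible because each group has 1 library. The median log2 ratio of the 10 genes lay between 0.416 and 0.584 over 11 alternatives. The number at least 2-fold higher was 2 in the main analysis, 1 with a minimum mean of 50 CPM, which leaves out Nolc1 and Cad, and 5 with a 1.5-fold rule. It was 2 under the other 9 alternatives, and the number 2-fold lower was 0 under all 11. The fold of the summed counts was between 1.15 and 1.19 under the other scalings and on the second sheet, apart from 1.06 when scaled on Krt8 and Krt18. That scaling moved the median of all measured genes from 0.03 to -0.11, and it turned the log2 ratios of Myc and Odc1 below 0. The log2 ratio of Npm1 was between -0.16 and 0.01. The ratios of Srm, Nolc1, Nop58, Nop56, Ncl, Fbl and Cad stayed above 0 under all 7 alternatives that apply to a single gene. Scaling on Krt8 and Krt18 also lowered the list medians, for example to 0.08 for RNA polymerase I, 0.16 for 40S and 0.11 for 60S assembly and 0.19 for the MYC-activated list. Medians of the polyamine, pyrimidine, MYC turnover and MYC-repressed lists took both signs. The second sheet holds all 10 genes with the same values. Depth limits Cad most, with 76 and 39 counts.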

Other observations

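Proliferation and signalling genes gave further values. Of 24 measured cell cycle genes, 18 had a log2 ratio above 0, against 52.5% of all measured genes, with a median of 0.29. At least 2-fold higher was 1, against 4.23% of all measured genes. Cdc20, an activator of the anaphase-promoting complex, had a fold of 2.13 (1.62 to 2.83) and Ccne2, a G1/S cyclin, 1.73 (1.12 to 2.76). Top2a, a topoisomerase of dividing cells, had 312 and 250 CPM, a fold of 1.25 (1.13 to 1.38). Ccnd1, cyclin D1, had 745 and 738 CPM, a fold of 1.01 (0.951 to 1.07).

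Of 14 measured purine synthesis genes, 9 were above 0, against 52.5% of all measured genes, with a median of 0.18. Atic, which completes inosine monophosphate, had a fold of 2.03 (1.62 to 2.55), whereas Adss1, the muscle-type adenylosuccinate synthase, had 0.507 (0.350 to 0.732). Its paralog Adss2 had 1.40 (1.23 to 1.61) and the salvage enzyme Aprt 1.08 (1.00 to 1.15). Of 15 measured genes of growth signalling upstream of MYC and RNA polymerase I, 10 were above 0, and none passed 2-fold. The median was 0.22, whereas the mean was 0.06. Tcf7l2, a transcription factor of WNT signalling, had a fold of 0.555 (0.420 to 0.734) and Ctnnb1, beta-catenin, 0.773 (0.714 to 0.837). Akt1s1, a subunit of the mTOR complex, had 1.46 (1.06 to 2.02).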
